A study of Mus musculus with 16 samples.

Results

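Target genes of the canonical Wnt pathway were followed in mouse pancreatic tumour cells that differed in Ly6d. The set held 10 genes chosen by name (Axin2, Tnfrsf19, Nkd1, Notum, Rnf43, Znrf3, Sp5, Tcf7, Lef1 and Dkk1), of 54532 genes in the deposited tables, and all 10 were found in both tables. KPC1199 is a mouse pancreatic cancer line, grown here as orthotopic tumours from which its cells were sorted again. RNA was compared between sorted KPC1199 ly6D WT and sorted KPC1199 ly6D overexpression cells, and between cells of the line sorted as ly6D high expression and as ly6D low expression, with 2 libraries in each of the 4 groups. No drug treatment, host strain, age, time after implantation or sort gate was given in the sources used here. WT and overexpression were deposited as raw counts, and Ly6d-high and Ly6d-low as TPM, a level scaled for gene length and library size. The WT columns carried names found in the titles of both sorted and tumour tissue WT samples. The names of the overexpression columns began like the titles of overexpression tumour tissue, of which none matched the second column. The placing of these 4 columns in the sorted groups is therefore an inference from names, and sorted cells and tissue could not be told apart by name. Ly6d itself followed the group names, at 1260 and 1066 CPM (counts scaled to library size) in the WT libraries against 3380 and 3423 CPM in the overexpression libraries. It was at 1.56 and 0.352 TPM in the Ly6d-low and 697 and 504 TPM in the Ly6d-high libraries, a difference set by the sort.

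In the canonical pathway, a secreted Wnt protein binds a Frizzled receptor and its coreceptor Lrp5 or Lrp6. This binding halts the destruction of beta-catenin, which then joins TCF/LEF factors on DNA and switches on target genes. Many targets are feedback inhibitors. Axin2 is a scaffold of the beta-catenin destruction complex, Nkd1 binds Dishevelled, Notum is a secreted enzyme that removes the lipid from Wnt proteins, and Rnf43 and Znrf3 are ubiquitin ligases that clear Frizzled receptors from the cell surface. Dkk1 is a secreted inhibitor that binds Lrp5 and Lrp6. Tcf7 and Lef1 are TCF/LEF factors, Sp5 is a zinc finger transcription factor, and Tnfrsf19, also called Troy, is a receptor of the tumour necrosis factor receptor superfamily that marks stem cells of the gut and stomach.

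Of the 10 genes, 5 (Axin2, Notum, Rnf43, Znrf3 and Tcf7) lie on chromosome 11. The list was chosen by name, and the share of all genes on that chromosome was not computed. RefSeq promoter sequence (GRCm38.p6) was matched for 8 of the 10 genes, as 14 promoters of separate start sites. The 250 bases before each start were searched on both strands for TCAAAG, a core of the TCF/LEF binding motif. Of the 14 promoters, 4 held it, each from a different gene (Sp5, Tnfrsf19, Lef1 and Dkk1), where 13.8% of all 32851 promoters held it. The promoters of Sp5 and Tnfrsf19 are shown because these genes differed between Ly6d-high and Ly6d-low cells. That of Axin2, the most widely used reporter of the pathway, is shown because it held no match. Capitals mark TCAAAG, or CTTTGA where the motif is on the other strand.
Sp5, chr2:70474673-70474922, plus strand: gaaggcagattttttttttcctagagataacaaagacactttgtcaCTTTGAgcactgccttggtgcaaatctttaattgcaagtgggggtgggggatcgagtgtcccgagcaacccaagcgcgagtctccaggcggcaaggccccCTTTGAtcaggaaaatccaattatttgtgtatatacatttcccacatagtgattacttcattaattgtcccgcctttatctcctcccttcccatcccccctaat
Tnfrsf19, upstream start, chr14:61046856-61047105, minus strand: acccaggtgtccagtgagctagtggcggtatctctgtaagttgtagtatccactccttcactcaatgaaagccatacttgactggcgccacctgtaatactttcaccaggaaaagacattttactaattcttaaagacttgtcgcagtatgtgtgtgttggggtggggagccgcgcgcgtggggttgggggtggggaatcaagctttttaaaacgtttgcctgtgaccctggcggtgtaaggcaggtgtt
Tnfrsf19, downstream start, chr14:61037988-61038237, minus strand: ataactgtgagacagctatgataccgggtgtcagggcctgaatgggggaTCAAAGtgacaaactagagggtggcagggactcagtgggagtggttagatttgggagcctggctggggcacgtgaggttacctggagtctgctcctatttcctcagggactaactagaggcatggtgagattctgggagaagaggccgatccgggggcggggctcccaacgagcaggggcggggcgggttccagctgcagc
Axin2, chr11:108920099-108920348, plus strand: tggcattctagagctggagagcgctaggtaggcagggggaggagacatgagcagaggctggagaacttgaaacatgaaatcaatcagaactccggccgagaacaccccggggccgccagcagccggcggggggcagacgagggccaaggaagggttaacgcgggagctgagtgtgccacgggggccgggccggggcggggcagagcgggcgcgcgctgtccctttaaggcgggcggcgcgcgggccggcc
The matches in Sp5 began 204 and 104 bases before the start, and that in Tnfrsf19 began 201 bases before its downstream start. The longer word ATCAAAG, which contains the core, was present in 2 of the 14 promoters (1 each of Sp5 and Tnfrsf19) and in 3.2% of all promoters. These matches describe the letters in the window and are not measured binding sites.

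Library totals ran from 15449241 to 18290325 counts for WT and overexpression and from 15063975 to 20509539 reads for Ly6d-high and Ly6d-low, the latter recovered from the TPM. Nothing in the labels says that the 2 libraries of a group came from separate animals, so p-values measure only the spread between these libraries. Of 8 epithelial tumour markers none was at 0 in any group. The 10 T cell markers together came to 2.32 and 2.01 CPM in WT and 8.58 and 7.17 CPM in overexpression libraries. They came to 1.89 and 1.52 TPM in Ly6d-low and 5.94 and 3.88 TPM in Ly6d-high libraries. Markers of other cell types were also found in all libraries, and their sums are given beside the results they moved with.

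Levels of the 10 genes spanned a wide range, with Tcf7 highest in every group and Dkk1 at 0 in every library. In the WT libraries Tcf7 stood at 46.2 and 36.6 TPM, computed here from the counts and gene lengths. Notum followed at 22.1 and 16.2 TPM, then Axin2 at 15.6 and 12.8 TPM, Rnf43 at 14.1 and 10.1 TPM, Znrf3 at 7.49 and 5.58 TPM, Tnfrsf19 at 5.25 and 3.62 TPM and Nkd1 at 2.82 and 1.33 TPM. In this order only the neighbours Axin2 and Rnf43 overlapped between libraries in WT. Overexpression cells had the same order except that Axin2, at 23.7 ± 1.31 TPM, and Notum, at 22.2 ± 1.66 TPM (SD, n = 2 each), changed places and overlapped. Tnfrsf19 and Nkd1 also overlapped there. Sp5 and Lef1 were near the limit of detection there, with 0 to 16 counts per library.

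Ly6d-low cells had Tcf7 at 25.7 and 30.0 TPM, Notum at 4.67 and 6.36 TPM, Rnf43 at 4.52 and 4.57 TPM, Znrf3 at 1.59 and 1.72 TPM and Tnfrsf19 at 1.36 and 1.30 TPM. The other members were under 1 TPM in these cells. In Ly6d-high cells Tnfrsf19 moved up to second place, after Tcf7. Sp5 moved from ninth place in Ly6d-low, the last above Dkk1, to the sixth in Ly6d-high cells, where it overlapped with its neighbours Znrf3 and Nkd1. Dkk1, with no count in any library, allowed at most 3 counts, which is 0.164 to 0.194 CPM in WT and overexpression and 0.146 to 0.199 CPM in Ly6d-high and Ly6d-low libraries. These limits cover counting error only.

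**Figure D1:**
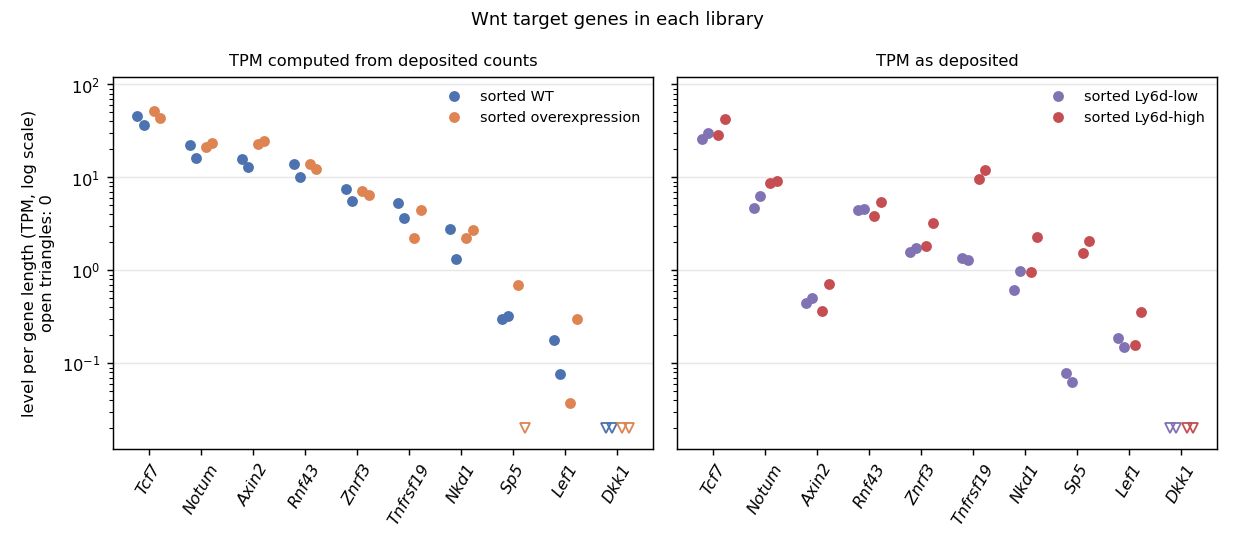
Level per gene length (TPM, log axis) of the 10 Wnt target genes in each library, with TPM computed from counts on the left and TPM as deposited on the right, and open triangles for a value of 0. Tcf7 is the highest gene in all 4 groups, and the widest gaps between the Ly6d-high and Ly6d-low libraries are those of Tnfrsf19 and Sp5.

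Cells sorted for high Ly6d were compared with cells sorted for low Ly6d. Of the target genes, Tnfrsf19 and Sp5 were higher in Ly6d-high cells, and none was lower. The feedback inhibitors Notum, Rnf43 and Znrf3 and the factor Tcf7 did not pass the test. Axin2, Nkd1, Lef1 and Dkk1 fell under the filter of 1 TPM in at least 2 libraries, and with no filter Axin2, Nkd1 and Lef1 were not called (limma adjusted p = 0.882, 0.481 and 0.674). Thus 2 of 6 tested members were called (limma on log2(TPM + 1), adjusted p under 0.05 over 14625 genes), where 9.81% of all genes were called, 8.64% higher and 1.17% lower. The median difference of the 6 was 0.50, against 0.25 over all genes, and it covers only members that passed the filter. Since Sp5 passed it only through the Ly6d-high group, its call cannot be read against these shares.

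Tnfrsf19 (ENSMUSG00000060548, GRCm38 chromosome 14, 60963875 to 61046490, minus strand) was at 1.36 and 1.30 TPM in Ly6d-low and at 9.69 and 12.1 TPM in Ly6d-high libraries. Both Ly6d-high libraries lay far above both Ly6d-low libraries. Its mean rose from 1.33 ± 0.0453 to 10.9 ± 1.72 TPM (SD, n = 2 each), a ratio of 8.20. In log2(TPM + 1) this was a difference of 2.35 ± 0.20 (SE; adjusted p = 0.000556 by limma). The values rested on 39 and 47 recovered reads in Ly6d-low and 368 and 382 in Ly6d-high libraries. It was called in each of the 4 fits that left out 1 library and with edgeR on the recovered reads, where the log2 fold change was 2.73 ± 0.17 (adjusted p = 0.00014).

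Sp5 (ENSMUSG00000075304, chromosome 2, 70474923 to 70477729, plus strand) was at 0.0788 and 0.0623 TPM in Ly6d-low and at 1.54 and 2.08 TPM in Ly6d-high libraries. The Ly6d-low values were 1 read in each library, and the Ly6d-high values were 26 and 29 reads. A difference among its tested values was thus built in by the filter. Over the summed reads its ratio of Ly6d-high to Ly6d-low was 24.3, with an exact 95% interval of 6.42 to 206 that covers counting error only. In log2(TPM + 1), which understates the change of so low a gene, the difference came to 1.39 ± 0.24 (SE; adjusted p = 0.0151 by limma). With no filter on low values, over 26237 genes, limma gave an adjusted p of 0.0481. With edgeR on recovered reads the adjusted p was 0.00817. Without either Ly6d-high library Sp5 fell under the filter and was not tested.

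Markers of other cells were also higher in the Ly6d-high libraries. The B and plasma cell markers (2 of 4 tested higher) came to 76.3 and 90.7 TPM, against 3.03 and 4.25 TPM in Ly6d-low. The macrophage markers (4 of 7 higher) came to 196 and 206 against 66.3 and 70.1 TPM, the neutrophil markers (2 of 3 higher) to 173 and 208 against 67.9 and 70.1 TPM, and the acinar markers (5 of 8 higher) to 10318 and 11998 against 4785 and 4824 TPM. The part of these cells in the rise of Tnfrsf19 and Sp5 was not tested. Of the defining B cell markers, Pax5 was at 0 in both groups and Ms4a1 in Ly6d-high. Of the 8 neutrophil markers, Camp was at 0 in both groups and Retnlg in Ly6d-high only. None of the 8 fibroblast or 6 tested endothelial markers was called. The fibroblast markers came to 427 and 500 TPM in Ly6d-high and 408 and 413 TPM in Ly6d-low. Sums in CPM, given for overexpression and WT, are in another unit than these. Epithelial markers were split, 2 of 8 higher and 4 lower, with sums of 40038 and 39162 TPM in Ly6d-high and 55738 and 56867 TPM in Ly6d-low. In sorted but bulk RNA, fewer cells of a type and less RNA per cell cannot be told apart.

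The inhibitors that clear Frizzled receptors or remove the lipid from Wnt proteins differed by less, or by no more than their spread. Notum (chromosome 11, 120653788 to 120661175) was at 4.67 and 6.36 TPM in Ly6d-low and 8.65 and 9.24 TPM in Ly6d-high libraries. Its groups did not overlap, but the difference of 0.62 ± 0.20 (SE) missed the threshold (limma adjusted p = 0.0933). The difference of Notum was smaller with TMM factors on TPM, at 0.37 (limma adjusted p = 0.211). On recovered reads it was 0.40 with edgeR (adjusted p = 0.2425) and 0.39 with DESeq2 (adjusted p = 0.629). Znrf3 (chromosome 11, 5276324 to 5444847) was at 1.59 and 1.72 against 1.83 and 3.26 TPM, again without overlap, with a difference of 0.39 ± 0.26 (limma adjusted p = 0.335). With TMM factors on TPM the difference of Znrf3 was 0.19 (limma adjusted p = 0.584). Rnf43 (chromosome 11, 87662722 to 87735539) was at 4.52 and 4.57 in Ly6d-low and at 3.86 and 5.39 TPM in Ly6d-high libraries, so its Ly6d-low values lay between the Ly6d-high ones. The difference of Rnf43 was 0.01 ± 0.21 (limma adjusted p = 0.983) and turned negative with TMM factors on TPM, at -0.23, where the median of all genes moved from 0.25 to -0.0042. Neither of the 2 ligases was called.

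Tcf7 (chromosome 11, 52252371 to 52283014) was at 25.7 and 30.0 TPM in Ly6d-low and 28.4 and 42.4 TPM in Ly6d-high libraries, and the groups overlapped. Its difference was 0.31 ± 0.21 (limma adjusted p = 0.345). With TMM factors on TPM the difference was 0.03 (limma adjusted p = 0.918), and with edgeR on recovered reads it was also 0.03 (adjusted p = 0.907). Tcf7 is also a known T cell gene. The 10 T cell markers together came to 5.94 and 3.88 TPM in Ly6d-high and 1.89 and 1.52 TPM in Ly6d-low libraries, and the 1 that was tested, the kinase gene Lck, was called higher (limma adjusted p = 0.0342). Most of these sums was Lck alone, at 4.51 and 3.49 TPM in Ly6d-high and 1.70 and 1.21 TPM in Ly6d-low libraries. Cd8a and Il7r were at 0 in both Ly6d-high libraries, and Cd3d, Cd4 and Il7r in both Ly6d-low libraries. The part of T cells in the level of Tcf7 was not tested.

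Several calls changed when a Ly6d-high library was left out, and the cause was not tested. Without Ly6d-high library 1, 4 of the 5 members then tested were called higher: Tnfrsf19, Notum (limma adjusted p = 0.0304), Znrf3 (0.0491) and Tcf7 (0.00968). Without Ly6d-high library 2, 1 of 5 was called, Tnfrsf19. Over all genes these fits called 6710 of 13627 genes (5599 higher) and 1613 of 13625, against 1435 of 14625 with all libraries. With 1 Ly6d-high library the spread comes from the Ly6d-low pair alone.

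The low members were read from recovered reads. Axin2 (ENSMUSG00000000142, chromosome 11, 108920349 to 108950783) had 15 and 21 reads in Ly6d-low and 16 and 26 in Ly6d-high libraries, which is 0.451 and 0.499 against 0.362 and 0.710 TPM. Ly6d-low values lay between the Ly6d-high ones, and the log2 fold change on reads was -0.16 ± 0.45 (edgeR adjusted p = 0.850). Nkd1 (chromosome 8, 88521354 to 88594884) was at 0.617 and 0.976 against 0.958 and 2.31 TPM, with overlap, and its log2 fold change on reads was 0.68 ± 0.45 (edgeR adjusted p = 0.348). Lef1 (chromosome 3, 131110471 to 131224356) had 10 reads in each Ly6d-low library and 11 and 21 in the Ly6d-high libraries (0.28 ± 0.55, edgeR adjusted p = 0.768). On reads, 2 of 9 members were called, Tnfrsf19 and Sp5, where 11.9% of 15275 genes were. Sp5, with 1 read in each Ly6d-low library, passed this filter too only through the Ly6d-high group. Its call on reads therefore cannot be read against this share. The SE of Axin2, Nkd1 and Lef1, from 0.45 to 0.55, hold counting error and the spread between libraries. A difference of several SE in either direction could therefore have been missed, and the 0.68 of Nkd1 was not called.

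**Figure D2:**
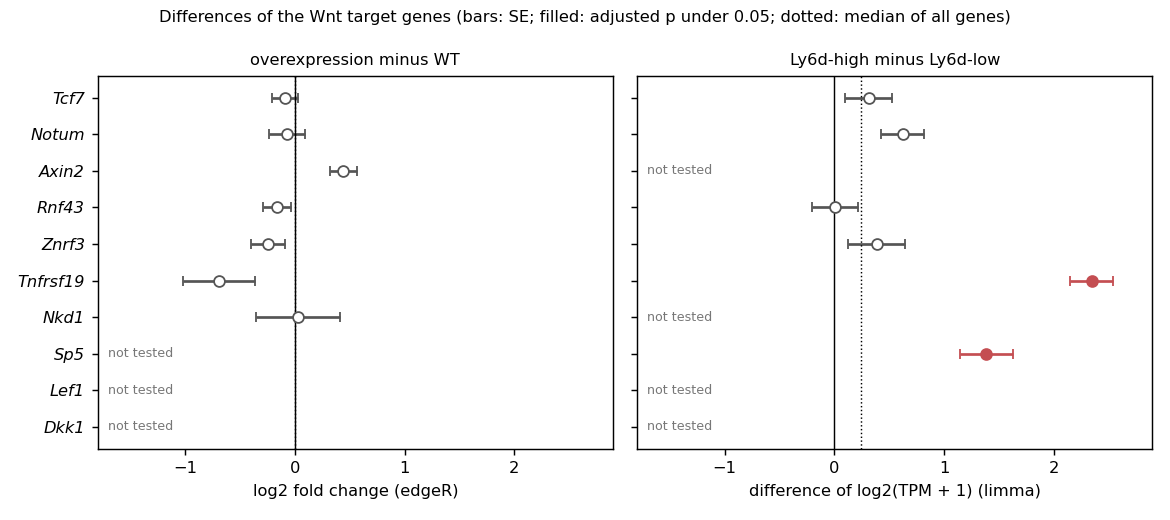
Difference of each Wnt target gene with its SE, as log2 fold change of overexpression over WT (left) and as the difference of log2(TPM + 1) between Ly6d-high and Ly6d-low cells (right), with filled points for an adjusted p under 0.05. Tnfrsf19 at 2.35 and Sp5 at 1.39 are the called genes, both on the right, and 4 members on the right and 3 on the left were not tested.

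Cells that overexpress Ly6d were compared with WT cells. No Wnt target gene was called. In CPM, Axin2 was higher and Tnfrsf19 lower in both overexpression libraries than in both WT libraries, without passing the threshold, and the other tested members differed by log2 fold changes from -0.25 to 0.02. Of 7 tested members 0 were called (edgeR quasi-likelihood test, adjusted p under 0.05 over 15771 genes), where 4.16% of all genes were called, 2.32% higher and 1.84% lower. At an unadjusted p under 0.05 the count was 1, Axin2, and DESeq2 called 0 of 9 members and 3.90% of all genes. The median log2 fold change of the 7 was -0.09, against -0.0012 over all genes.

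Axin2 was at 29.9 and 33.9 CPM in WT and at 41.7 and 45.8 CPM in overexpression libraries. Both overexpression libraries lay above both WT libraries. The means were 31.9 ± 2.77 and 43.7 ± 2.87 CPM (SD, n = 2 each), and the log2 fold change was 0.44 ± 0.12 (SE; edgeR adjusted p = 0.0805). Axin2 was called with no filter on low counts (edgeR adjusted p = 0.0331) and without overexpression library 1 (0.0218), and was not called with DESeq2 (0.167) or without WT library 1 (0.514).

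Tnfrsf19 was at 8.67 and 8.22 CPM in WT and at 3.50 and 7.05 CPM in overexpression libraries. The WT libraries lay close together and above both overexpression libraries. The latter, with 64 and 127 counts, lay further apart than the WT libraries. In TPM computed from the counts the groups overlapped, at 5.25 and 3.62 against 2.22 and 4.41 TPM. The log2 fold change was -0.70 ± 0.33 (edgeR adjusted p = 0.310). Without overexpression library 2 Tnfrsf19 was called lower, at -1.29 (edgeR adjusted p = 0.00565), and without overexpression library 1 it was at -0.28 (0.497). Its sign here was opposite to that between Ly6d-high and Ly6d-low cells. The tables were normalized separately, and the difference between the comparisons was not tested.

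Neither ligase was called with overexpression. Rnf43 was at 32.1 and 31.7 CPM in WT and at 30.2 and 27.3 CPM in overexpression libraries, without overlap in CPM (-0.17 ± 0.13, edgeR adjusted p = 0.564). Znrf3 was at 20.6 and 21.1 against 18.5 and 17.1 CPM, also without overlap in CPM (-0.25 ± 0.16, edgeR adjusted p = 0.468). In TPM computed from the same counts both overlapped, with means of 12.1 and 13.1 TPM for Rnf43 and 6.53 and 6.74 TPM for Znrf3 in WT and overexpression. Notum, Tcf7 and Nkd1 overlapped between the groups in CPM. Notum was at 18.6 and 18.7 against 16.8 and 19.0 CPM, Tcf7 at 42.3 and 46.0 against 45.0 and 38.8 CPM, and Nkd1 at 4.47 and 2.91 against 3.39 and 4.22 CPM, with edgeR adjusted p of 0.871, 0.758 and 0.985.

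Sp5 and Lef1 fell under the filter on low counts and were called neither by DESeq2 (adjusted p = 0.994 and 0.992) nor by edgeR with no filter (adjusted p = 0.983 and 0.972). Sp5 had 4 and 5 counts in WT and 9 and 0 in overexpression libraries, and its ratio of overexpression to WT was 0.925 (exact 95% interval 0.325 to 2.63, counting error only). Lef1 had 10 and 5 counts in WT and 2 and 16 in overexpression libraries, a ratio of 1.11 (0.528 to 2.37). The overexpression libraries held the highest and the lowest value of each gene.

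Markers of other cells moved with overexpression too. The acinar markers (8 of 8 tested lower) summed to 17808 and 18187 CPM in WT and to 1342 and 1477 CPM in overexpression libraries, and the endothelial markers (6 of 8 lower) to 296 and 291 against 141 and 166 CPM. The macrophage markers (6 of 8 higher) summed to 79.9 and 81.9 against 227 and 235 CPM, and the B and plasma cell markers (2 of 3 higher) to 7.84 and 6.67 against 82.9 and 82.4 CPM. The neutrophil markers (5 of 7 higher) came to 55.6 and 55.1 in WT and 160.1 and 169 CPM in overexpression, and fibroblast markers (2 of 8 higher) to 5256 and 5829 against 6253 and 6227 CPM. The T cell markers (0 of 2 tested called) summed to 2.32 and 2.01 CPM in WT and 8.58 and 7.17 CPM in overexpression libraries. The part of these cell types in the values of Axin2, Tnfrsf19 and Tcf7 was not tested. Epithelial markers (1 of 8 lower) summed to 12444.5 and 12055.5 CPM in WT and 12745.4 and 13429.8 CPM in overexpression libraries.

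**Figure D3:**
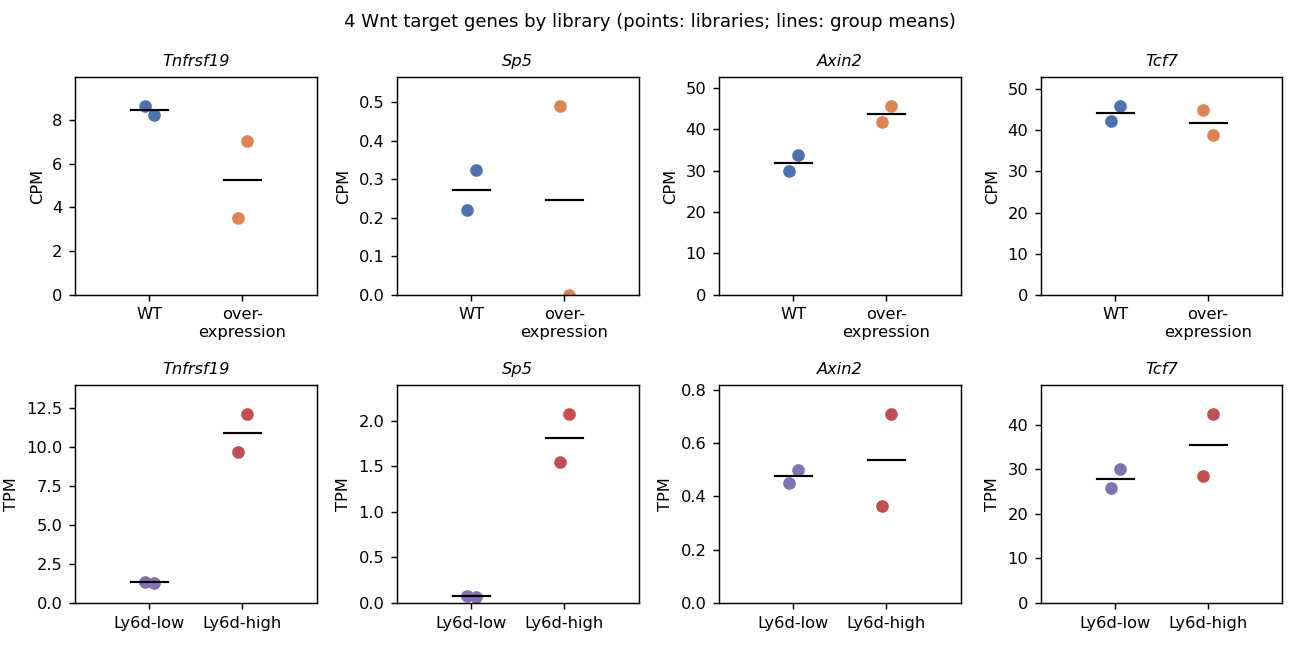
Values of 4 Wnt target genes in each library (points) with group means (lines), in CPM for WT and overexpression (top) and in TPM for Ly6d-low and Ly6d-high cells (bottom), on linear axes from 0. Tnfrsf19 is at 9.69 and 12.1 TPM in Ly6d-high against 1.36 and 1.30 TPM in Ly6d-low cells, while Axin2 is above WT in both overexpression libraries.

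Genes that carry the Wnt signal gave the setting for these targets. Of 109 further pathway genes in 8 lists, 93 were tested for overexpression, with 5 higher and 2 lower. This share of 7.53% stood against 4.16% of all genes. In Ly6d-high against Ly6d-low cells 81 were tested, with 9 higher and 0 lower, a share of 11.1% against 9.81% of all genes. Of the 9, Ror1, Fzd9 and Wnt7a passed the filter only through the Ly6d-high group. The share of 11.1% therefore cannot be read against that of all genes. The split depended on the scaling. TMM factors on TPM gave 5 higher and 1 lower of 81, a share of 7.41% against 6.32% of all genes. EdgeR on recovered reads gave 11 higher and 3 lower of 90, a share of 15.6% against 11.9% of all genes. Neither share can be read against that of all genes, since both filters can keep a gene through the Ly6d-high group alone.

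Among ligands, 2 of 8 tested were higher in Ly6d-high cells and 0 of 13 were called with overexpression. Wnt5b, a ligand that mostly signals without beta-catenin, was at 1.93 and 2.76 TPM in Ly6d-low and at 10.5 and 9.12 TPM in Ly6d-high libraries (difference 1.70 ± 0.21, limma adjusted p = 0.00294). Wnt7a was at 0.678 and 0.413 against 2.24 and 2.47 TPM (limma adjusted p = 0.0264), and was not called with TMM factors on TPM or without Ly6d-low library 2 (0.115). With overexpression the values of Wnt5b were 4.42 and 3.56 CPM in WT and 3.17 and 1.72 CPM. Wls, which carries Wnt proteins to the cell surface, was higher with overexpression, at 367 and 359 against 293 and 303 CPM (0.27 ± 0.06, edgeR adjusted p = 0.0401), a call that held in 1 of 4 fits with a library left out. It was lost without WT library 1 (0.120), overexpression library 1 (0.0932) or overexpression library 2 (0.0761). The 2 tested R-spondins, Rspo1 and Rspo3, were called in neither comparison.

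Among receptors, 2 of 18 were higher with overexpression (Lgr4 and Lgr5) and 2 of 17 in Ly6d-high cells (Ror1 and Fzd9). Lgr4 and Lgr5 are receptors for R-spondins, and Lgr5 is itself a Wnt target and a stem cell marker of the gut. DESeq2 did not call Lgr5 with overexpression (adjusted p = 0.0929). By edgeR Lgr5 was called, at 23.3 and 24.4 CPM in WT and at 33.7 and 36.0 CPM in overexpression libraries (0.53 ± 0.13, edgeR adjusted p = 0.0464). It lost this call without WT library 1 (0.280), WT library 2 (0.138) or overexpression library 2 (0.0523). Lgr4 was at 73.7 and 74.1 against 96.4 and 95.7 CPM and lost its call without WT library 1 (edgeR adjusted p = 0.150) or WT library 2 (0.0883). Lgr5 was at 4.69 and 4.88 TPM in Ly6d-low and 3.56 and 4.38 TPM in Ly6d-high libraries, not called by limma (adjusted p = 0.445) and called lower by edgeR on recovered reads (0.0283). Ror1, a receptor for Wnt5a, was at 0.345 and 0.386 TPM in Ly6d-low and 2.79 and 2.92 TPM in Ly6d-high libraries (1.50 ± 0.22, limma adjusted p = 0.00664). The Frizzled receptor gene Fzd9 was at 0.361 and 0.114 against 1.85 and 3.87 TPM (1.60 ± 0.31, limma adjusted p = 0.0223), a call lost with TMM factors on TPM. Ror1, Fzd9 and Wnt7a passed the filter only through the Ly6d-high group. With no filter Ror1 was called (limma adjusted p = 0.0466) and Fzd9 (0.115) and Wnt7a (0.0994) were not.

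Among antagonists, Sfrp1, which binds and sequesters Wnt proteins, was called higher in both comparisons. It was at 6.41 and 5.95 CPM in WT and at 11.4 and 14.4 CPM in overexpression libraries (1.05 ± 0.23, edgeR adjusted p = 0.0256). In Ly6d-low it was at 1.17 and 1.29 and in Ly6d-high libraries at 3.65 and 3.99 TPM (1.11 ± 0.20, limma adjusted p = 0.0171). The overexpression call was lost without WT library 1 (edgeR adjusted p = 0.0563) or WT library 2 (0.0938), and the other without Ly6d-low library 1 (limma adjusted p = 0.0826). Dkk3, a relative of Dkk1, was at 1.58 and 1.56 against 3.27 and 4.48 TPM in Ly6d-high libraries (limma adjusted p = 0.0451). Its call was lost with TMM factors on TPM and without Ly6d-high library 2 (0.0868), Ly6d-low library 1 (0.206) or Ly6d-low library 2 (0.184). In all, 1 of 11 tested antagonists was called with overexpression and 2 of 10 in Ly6d-high cells.

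In the cytoplasm and nucleus few genes were called. Of 17 destruction complex and relay genes, Dvl1, a Dishevelled gene, was lower with overexpression, at 101 and 102 CPM against 123 and 129 CPM in WT (-0.33 ± 0.08, edgeR adjusted p = 0.0338; 0.207 without WT library 2). The kinase gene Csnk1a1 was the 1 of 16 called in Ly6d-high cells, at 71.0 and 83.9 against 49.7 and 52.6 TPM (limma adjusted p = 0.0499), and it was not called with TMM factors, with edgeR on reads or without Ly6d-low library 1 (0.570) or 2 (0.353). Beta-catenin itself, Ctnnb1, was called in neither comparison, at 820 and 855 against 906 and 919 CPM (0.11 ± 0.07, edgeR adjusted p = 0.471) and at 207 and 216 in Ly6d-low against 188 and 245 TPM (0.02 ± 0.15, limma adjusted p = 0.926), a difference that was -0.27 with TMM factors on TPM, also not called. Bcl9, a coactivator of beta-catenin, was higher with overexpression, at 58.8 and 56.2 against 83.0 and 82.4 CPM (0.51 ± 0.09, edgeR adjusted p = 0.00809), and was called in all 4 fits with a library left out. Tcf7l1, a TCF factor known mainly as a repressor, was at 11.3 and 13.2 TPM in Ly6d-low and 21.8 and 30.2 TPM in Ly6d-high libraries (1.01 ± 0.20, limma adjusted p = 0.0234; 0.159 without Ly6d-low library 1). With no filter on low values Tcf7l1, Csnk1a1, Dkk3 and Sfrp1 were not called in this comparison (limma adjusted p = 0.106, 0.119, 0.164 and 0.0993).

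Of the wider Wnt-responsive genes, 1 of 21 was higher (Lgr5, above) and 1 lower with overexpression, and 1 of 18 was higher in Ly6d-high cells. The lower gene was the cyclin gene Ccnd1, at 385 and 366 CPM in WT and 321 and 301 CPM in overexpression libraries (-0.29 ± 0.07, edgeR adjusted p = 0.0298; 0.124 without overexpression library 2). The higher gene in Ly6d-high cells was the matrix protease gene Mmp7. Vegfa, which encodes a growth factor for blood vessels, was at 119.6 and 119.5 TPM in Ly6d-low and 90.5 and 98.2 TPM in Ly6d-high libraries. It was not called in TPM as deposited (limma adjusted p = 0.123), and was called lower with TMM factors (0.0297) and with edgeR on reads (0.00713). With edgeR on reads Plaur, which encodes the urokinase receptor, was also called lower (-0.44 ± 0.09, adjusted p = 0.0233; limma 0.415). Myc was at 121 and 118 against 103 and 104 CPM with overexpression (-0.23 ± 0.07, edgeR adjusted p = 0.127), and at 111 and 123 in Ly6d-low against 138 and 196 TPM (0.49 ± 0.18, limma adjusted p = 0.126). The groups of Myc did not overlap in either comparison, and the threshold was passed in neither.

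**Figure D4:**
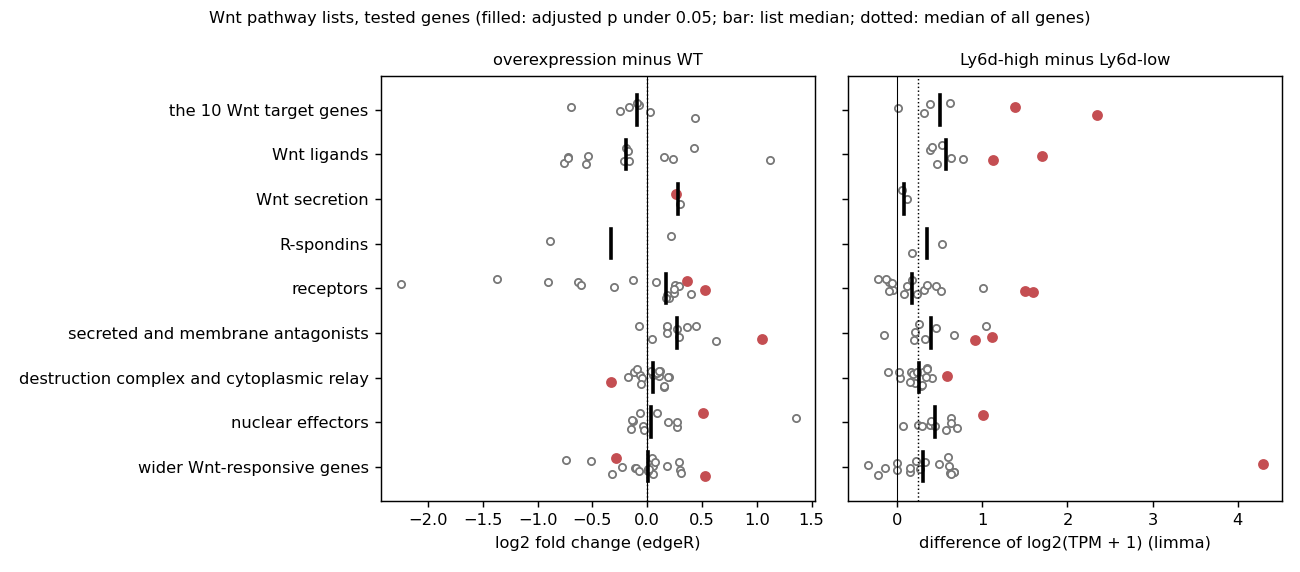
Log2 fold change of overexpression over WT (left) and difference of log2(TPM + 1) between Ly6d-high and Ly6d-low cells (right) for each tested gene of the Wnt lists, with filled points for an adjusted p under 0.05 and a bar at each list's median. Called genes are scattered over the lists, and the 10 target genes have a median of -0.09 on the left and 0.50 on the right.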

How the data were processed

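RNA-seq was analysed in 8 libraries, placed in the groups of sorted KPC1199 cells. No column was assigned to the 4 WT and 4 overexpression tumour tissue samples, although their titles hold the letters of 3 of the 4 count columns used, and 2 further columns of per-sample values matched no label and were not used. Per the submitters' processing notes, fastp, HISAT2, featureCounts and DESeq2 were used, with build mm9. The coordinates are instead those of GRCm38: all 10 members, and 98.3% of 54409 genes found in GENCODE M21, had the same position. The strand setting of the counting is not known here. Genes on the opposite strand overlap Axin2, Tnfrsf19, Notum, Rnf43, Tcf7 and Lef1, none with over 68 counts in a table.

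The deposited counts are raw whole numbers per gene. The deposited TPM were made by the authors over the listed gene length, and each column sums to the same total. The deposited length column (another unit, bases) is that of the gene model. TPM times length came out as whole reads (within 0.1 reads) for 100% of 85643 values above 0.

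Counts were tested with edgeR 4.0.16 (filterByExpr, TMM, glmQLFit, glmQLFTest) in R 4.3.3. Each SE is the fold change divided by the root of F. TPM were tested with limma 3.58.1 (trend, pseudocount 1 before log2), keeping genes that reached 1 TPM in 2 libraries or more. Adjusted p (Benjamini-Hochberg over all genes tested) had to lie under 0.05. DESeq2 1.42.0 and the other alternatives are given in the closing section. The scripts were tested on simulated data. Replicate libraries were checked and differed beyond sampling noise in each group. The 10 members and all lists were chosen with earlier results of these data known. All 10 members were named, with called genes of the other Wnt lists (at most 3 per list). Vegfa and Plaur were named after their values were seen. Beta-catenin, Myc, the R-spondins and the T cell genes were named in addition, as part of the setting of a member.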

Additional observations from a re-analysis of the deposited data

How the results depend on the processing

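Tnfrsf19 was called higher in Ly6d-high cells under every alternative run, and Sp5 under every one in which it was tested. Wherever the filter of 1 TPM or filterByExpr was applied, Sp5 was kept only through the Ly6d-high group. The count of all genes called for overexpression went from 656 to 1187 with no filter on low counts and ranged from 565 to 1584 with 1 library left out. The count of members called went from 0 to 1 with no filter (Axin2) and ranged from 0 to 1 with 1 library left out (Axin2 without overexpression library 1, Tnfrsf19 without overexpression library 2). For Ly6d-high against Ly6d-low, 1435 genes were called, 531 with no filter on low values, 925 with TMM factors on TPM and 931 to 6710 with 1 library left out, and members from 1 to 4. The calls were 1264 higher and 171 lower as deposited, 676 and 249 with TMM factors, and 1224 and 591 with edgeR on recovered reads. Rnf43 turned from 0.0074 to -0.23 with TMM factors, -0.28 with edgeR on reads and -0.30 with DESeq2 on reads, and ranged from -0.19 to 0.20 with 1 library left out. With 1 library left out the overexpression values ranged from -0.24 to 0.35 for Nkd1, -0.17 to 0.0087 for Notum and -0.21 to 0.0031 for Tcf7, none of them called. The cause of these changes was not tested. A group left with 1 library is assumed to vary like the other group. With the replicate number as a block, 4179 genes and 3 members were called in Ly6d-high cells, Notum in addition (adjusted p = 0.0124). Nothing in the labels pairs these libraries, and the deviations of same-numbered libraries correlated at 0.0681. No paired analysis was possible for overexpression because its columns could be tied to a group but not to a numbered sample. Depth limits Sp5, Lef1, Dkk1 and, in the TPM table, Axin2 and Nkd1, which rest on few or no reads.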

Other observations

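Axin2 mRNA stood at another level in the 2 tables. Its mean over the 4 WT and overexpression libraries was 37.8 CPM, and over the 4 Ly6d-high and Ly6d-low libraries it was 1.07 CPM of recovered reads, 35.4-fold lower. Of 9856 genes with a mean of at least 10 CPM in the first table, 41 (0.42%) had a ratio as low or lower, and the median gene was 1.23-fold lower. Notum was 2.73-fold, Rnf43 2.61-fold and Znrf3 3.04-fold lower in the second table, while Tcf7 was 1.35-fold lower and Tnfrsf19 was 1.59-fold higher. The tables were made and normalized separately and their groups differ, so these levels are set side by side with no test.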
